A study of Homo sapiens with 30 samples.

Results

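The dense H3K9me3 blocks are 34 of the 2676 megabase bins with sequence (1.27%) on chromosomes 1 to 18 and 20 to 22 of hg19. Each chromosome was cut into 1 Mb bins from its first base, and a bin was kept when 100 or more H3K9me3 peaks of the control list started in it. The blocks were thus selected on control H3K9me3 peak starts, and those numbers are given below as a description. The peaks come from ChIP-seq in HEK293T, a human embryonic kidney line with the large T antigen of SV40, 48 h after transfection of antisense oligonucleotides (ASOs). Both experiments included cells given a negative control ASO (NC). H3K9me3 was profiled in NC and after a mix of ASOs against the lncRNA LINC00662 (ΔLINC00662). H3K27me3 was profiled in NC, after 1 ASO against LINC00641 (ΔLINC00641) and after 1 ASO against SETD5-AS1 (ΔSETD5-AS1). The 30 samples form 10 groups of 3 replicates, ChIP and input for each of the 5 conditions, and each ChIP group gave 1 peak list called on its merged replicates. Values below therefore have no replicate error, lists could not be compared by a test, and they hold no RNA measurement of the targeted lncRNAs.

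H3K9me3 marks constitutive heterochromatin. It is written by SUV39H1, SUV39H2 and SETDB1 and is read by HP1 proteins, and SETDB1 is brought to repeats and to zinc finger genes by KRAB zinc finger proteins through TRIM28. It is known for satellite repeats next to centromeres and for clusters of C2H2 zinc finger genes. H3K27me3 is written by the Polycomb complex PRC2 and marks silent developmental genes.

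The blocks covered 33.9 Mb and held 4622 of the 70807 NC H3K9me3 peak starts in all bins (6.53%), at 136 per bin against 25.1 in the other 2642 bins. The densest block was chr4:1-1000000, at the tip of the short arm, with 225 starts. The least dense were chr13:62000001-63000000 and chr16:32000001-33000000 with 101 each. Just outside the threshold lay chr5:5000001-6000000 with 99 starts and chr12:14000001-15000000 with 98. NC peaks covered 9.80% of the bases of the blocks and 1.60% of the other bins, and the peaks of the blocks had a median width of 510 bp against 471 bp elsewhere. Their median fold enrichment over input was 3.14 in the blocks and 3.21 elsewhere, and by block it reached 4.91 in chr7:61000001-62000000. Strong peaks, with a −log10 q of 5 or more, were 41.3% of the block peaks and 35.8% of the others.

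Sequences under the peaks of these blocks were of different kinds. The stretches that follow give 200 bases of the plus strand of GRCh37 (the chromosome coordinates of hg19). The first, chr4:86145-86344, lies in a coding exon of ZNF595, overlapped by the pseudogene Z95704.2, inside an NC peak of chr4:1-1000000. It is not at the strongest peak of its block and was chosen for its linkers. It shows the repeated coding unit of a zinc finger gene, and its capitals mark 3 matches to TGEKP, the linker between fingers. The others are centred on the summit of the strongest NC peak of a block, by −log10 q. They are chr5:140698837-140699036 in the coding exon of TAF7, chr7:61968882-61969081 in intergenic sequence, and chr7:157940900-157941099 in an intron of PTPRN2. Capitals mark a CENP-B box, the binding site of a centromere protein, in the chr7:61968882-61969081 stretch, and 12-base words present more than once in the stretch in the one within PTPRN2.
ZNF595 exon: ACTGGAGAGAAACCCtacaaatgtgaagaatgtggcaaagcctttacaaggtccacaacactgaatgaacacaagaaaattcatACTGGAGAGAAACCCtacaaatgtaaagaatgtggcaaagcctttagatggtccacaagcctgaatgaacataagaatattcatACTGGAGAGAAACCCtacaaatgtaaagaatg
TAF7 exon: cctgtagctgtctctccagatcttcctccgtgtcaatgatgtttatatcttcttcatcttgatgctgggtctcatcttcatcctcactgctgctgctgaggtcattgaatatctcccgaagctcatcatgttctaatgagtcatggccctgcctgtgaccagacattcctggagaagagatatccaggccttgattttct
Beside the chromosome 7 centromere: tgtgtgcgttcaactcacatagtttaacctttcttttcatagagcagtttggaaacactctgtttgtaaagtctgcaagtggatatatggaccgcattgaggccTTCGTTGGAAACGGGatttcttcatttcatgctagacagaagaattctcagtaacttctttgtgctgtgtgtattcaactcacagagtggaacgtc
PTPRN2 intron: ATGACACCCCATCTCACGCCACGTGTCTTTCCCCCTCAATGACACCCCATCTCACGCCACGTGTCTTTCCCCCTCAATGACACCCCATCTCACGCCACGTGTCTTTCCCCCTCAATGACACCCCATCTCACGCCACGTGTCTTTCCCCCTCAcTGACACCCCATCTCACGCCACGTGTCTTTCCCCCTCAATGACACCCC

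These summits differed in how often their letters occur in the genome, counted as exact copies of their 30-base words on either strand. The TAF7 exon was single copy, with 100% of its words present once. The words at the strongest peak of chr7:153000001-154000000, in an intron of DPP6, had a median of 262 copies. In the PTPRN2 intron 199 of the 200 bases lay in repeated 12-base words, and the summit held 1738 fragments at 3.28-fold enrichment. The summit beside the chromosome 7 centromere held 15519 fragments at 3.56-fold. Input was high at both, 123 and 1015 times the genome-wide level, and its part in these peaks was not tested. The authors' methods name no filter on mapping quality, so the position of a peak within repeated sequence is uncertain.

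The blocks lay on 10 chromosomes, and 11 of the 21 chromosomes held none. Chromosome 7 had 9 blocks with 26.3% of its NC starts, and chromosome 13 had 8 with 24.3%. Of the 34 blocks, 8 lay within 5 Mb of a centromere gap, taken as the longest run of unknown bases of a chromosome, 13 lay within 5 Mb of a chromosome end, and 13 were interior. The 21 blocks near a gap or end made up 61.8% of the blocks (95% Wilson interval 45.0 to 76.1), against 16.4% of all bins. The 34 blocks formed 20 runs, of which 12 were single bins. The longest run was chr13:62000001-69000000, with 7 adjacent blocks and 794 starts. The 36 bins that flank a run held 1 to 95 starts, with a median of 44, and 12 of them (33.3%) had 50 or more, against 8.63% of all bins outside the blocks.

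**Figure D1:**
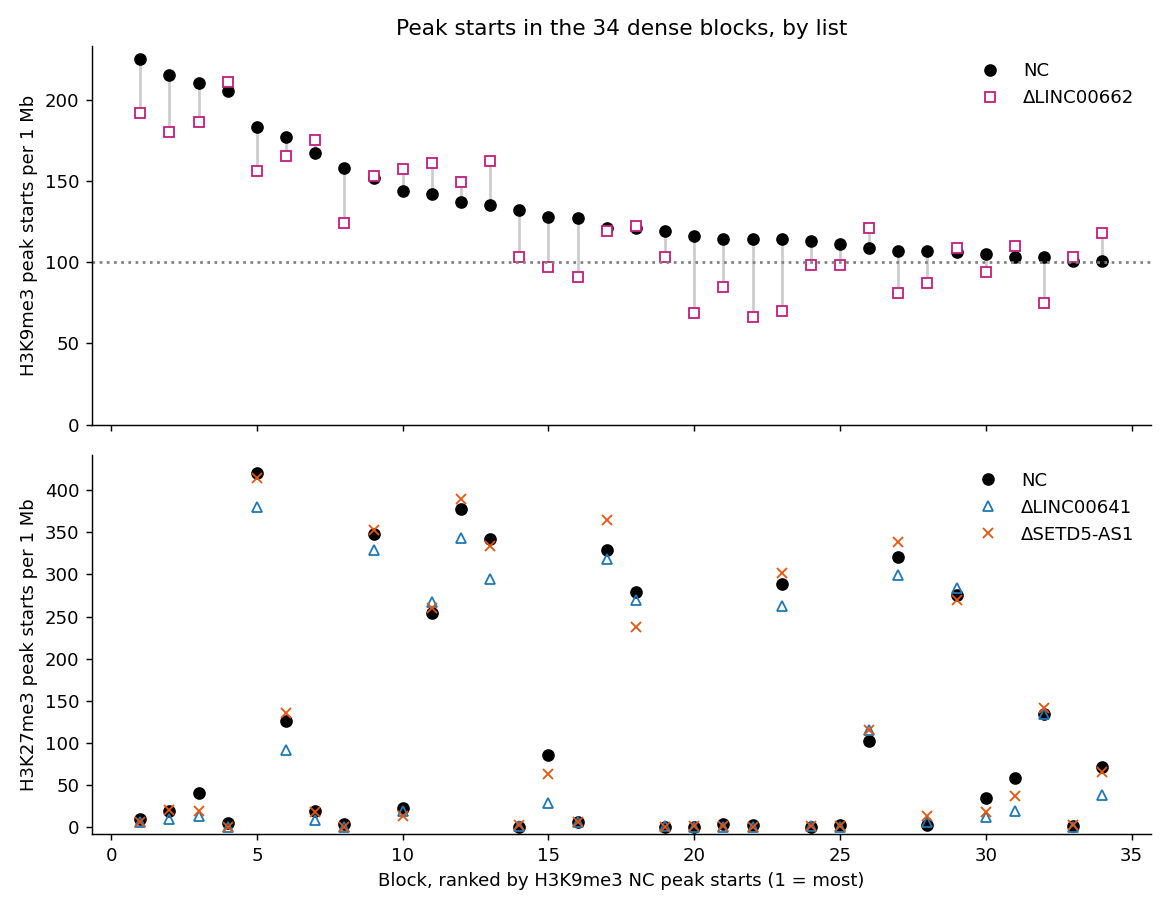
Peak starts per 1 Mb block in the 5 lists, for the 34 blocks in order of NC H3K9me3 starts. The upper panel shows H3K9me3 in NC (filled circles) and ΔLINC00662 (open squares) with the threshold of 100 dotted, and the lower panel H3K27me3 in NC (circles), ΔLINC00641 (triangles) and ΔSETD5-AS1 (crosses). NC H3K9me3 runs from 225 to 101, whereas H3K27me3 jumps between 0 and 420 from block to block.

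Gene content varied as widely as location. The blocks held 178 protein-coding gene starts, a median of 1.5 per block (range 0 to 67) against 4 in the other bins. A further 285 lncRNA and 362 pseudogene starts lay in them, at means of 8.38 and 10.6 per block against 6.51 and 4.99 per other bin. Block medians of coding genes were above those of the other bins on only 3 of the 10 chromosomes. There were 8 blocks without a coding gene start, and they include chr7:61000001-62000000 beside the centromere. Near chromosome ends lay chr10:132000001-133000000, chr22:49000001-50000000 and chr1:5000001-6000000. The other 4 lie in the long run on chromosome 13. At the other extreme, chr5:140000001-141000000 held 67 coding gene starts, 53 of them clustered protocadherins, cell-adhesion proteins expressed in neurons. Median GC content was 42.6% in the blocks (33.7 to 50.8%) and 40.1% in the other bins. This difference of 2.52 percentage points was 0.703 when the same number of bins was ranked by strong NC peaks. It was higher than in the other bins of the same chromosome on 8 of 10 chromosomes, by 0.825 to 10.4 percentage points, and lower on chromosomes 13 and 16. With the bins cut into 5 equal groups by GC content, the lowest group held 9 blocks, the next 0, and the following ones 2, 13 and 10.

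Most of the NC peaks of the blocks lay outside coding genes, as did most of the block bases. Coding gene bodies covered a mean of 27.5% of a block and 45.8% of another bin. By summit, 51.6% were intergenic, 15.3% in a non-coding gene, 25.5% in a coding gene and 7.64% within 1 kb of the start site of a gene of any type, against 43.4, 18.4, 34.3 and 3.86% elsewhere. Local input exceeded 5 times the genome-wide level at 4.41% of the block peaks and at 1.28% of the others. Olfactory receptor, keratin, defensin, histone and HOX genes, other clustered families, had 0 of 394, 151, 46, 77 and 39 members in the blocks, which hold 1.00% of all coding genes. These families start in only 56, 12, 11, 15 and 5 bins.

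Each block was therefore described as one of 4 kinds, chosen after the values were seen: 13 blocks with 100 or more NC H3K27me3 starts (H3K27me3-rich), 8 with a zinc finger gene start, 8 on chromosome 13, and 5 others. No block fell under more than 1 of these kinds.

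**Figure D2:**
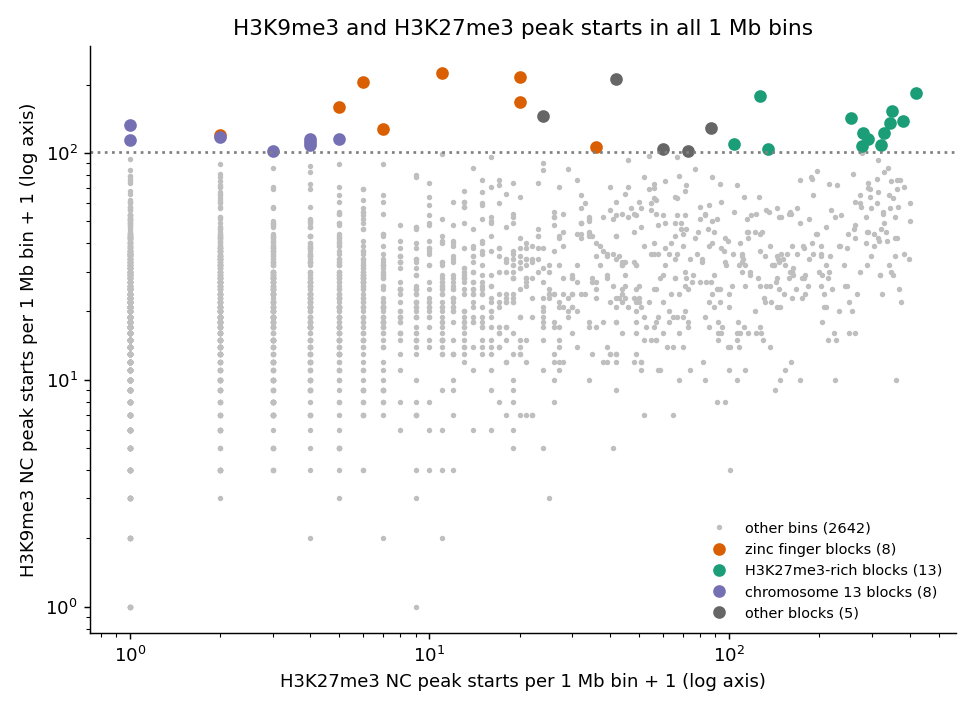
H3K9me3 against H3K27me3 NC peak starts for all 2676 bins, each plus 1 on log axes. Grey points are the 2642 other bins, coloured points the blocks by kind, and the dotted line is the threshold that selected them. The chromosome 13 blocks sit at 0 to 4 H3K27me3 starts and the H3K27me3-rich ones at or above 100.

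The zinc finger blocks were the densest kind, with 1321 NC H3K9me3 starts, a median of 162.5 per block and 13.8% of bases covered. Zinc finger gene starts were present in 8 of 34 blocks (23.5%, 12.4 to 40.0) and in 6.13% of all bins, and the blocks held 36 of the 292 such genes in the bins (12.3%). Of the 36 genes, 35 had an NC peak in the gene body and 29 had one within 1 kb of the start site (80.6%). Over all 184 coding genes and segments of the blocks, these included, the shares were 69.0 and 55.4%. In the other bins 33 of 256 zinc finger genes (12.9%) had a peak at the start site, and 706 of 17571 coding genes did (4.02%). These shares follow in part from the rule, since a dense bin has more peaks near any point.

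In chr4:1-1000000 the 5 zinc finger genes ZNF595, ZNF718, ZNF732, ZNF141 and ZNF721 were 25.3 to 65.9% covered in NC. ZNF721, whose body was 65.9% covered by 34 NC peaks, had the highest cover of the 36, and 32 ΔLINC00662 peaks covered 45.5% of it. ZNF718 had 31 NC peaks (42.6%) and 20 ΔLINC00662 peaks (19.2%). The remaining 13 coding genes of this block include PCGF3, a Polycomb component, with 1 NC peak (1.23%), and IDUA, a lysosomal enzyme, with 0. In chr5:178000001-179000000, with 215 starts, ZNF354A, ZNF354B, ZNF354C, ZFP2, ZNF454 and ZNF879 were 40.1 to 65.7% covered in NC, and each was less covered in ΔLINC00662, at most 45.8% in ZNF354A. GRM6, a metabotropic glutamate receptor gene between them, was 49.4% covered in NC and 52.1% in ΔLINC00662. In chr12:133000001-133851895, the last bin of chromosome 12 with 7 zinc finger genes, ZNF891 and ZNF268 were 59.1 and 59.0% covered in NC and 19.5 and 33.2% in ΔLINC00662. ZNF678, the only zinc finger gene of chr1:227000001-228000000, had 47 NC peaks (54.9%) and 44 ΔLINC00662 peaks (24.2%).

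The zinc finger blocks beside the chromosome 7 centromere were of another make-up. In chr7:63000001-64000000, with 205 NC and 211 ΔLINC00662 starts, ZNF722, ZNF727, ZNF735, ZNF679 and ZNF736 were only 0 to 19.5% covered in NC. This block had 39 pseudogene starts, and 57 lay in chr7:57000001-58000000, where ZNF479 and ZNF716 were 6.98 and 4.02% covered. In chr7:64000001-65000000 the cover ranged from 1.25% in ZNF92 to 28.5% in ZNF107. Over the 36 genes the median cover was 26.0% in NC and 14.3% in ΔLINC00662. Fewer peaks were counted in ΔLINC00662 in 27 genes, more in 5 and as many in 4. Of all 184 coding genes and segments of the blocks, 89 had fewer, 25 more and 70 as many. Covered bases in ΔLINC00662 were 0.764 times those in NC over the blocks and 0.579 times over the other bins, so less cover was general.

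**Figure D3:**
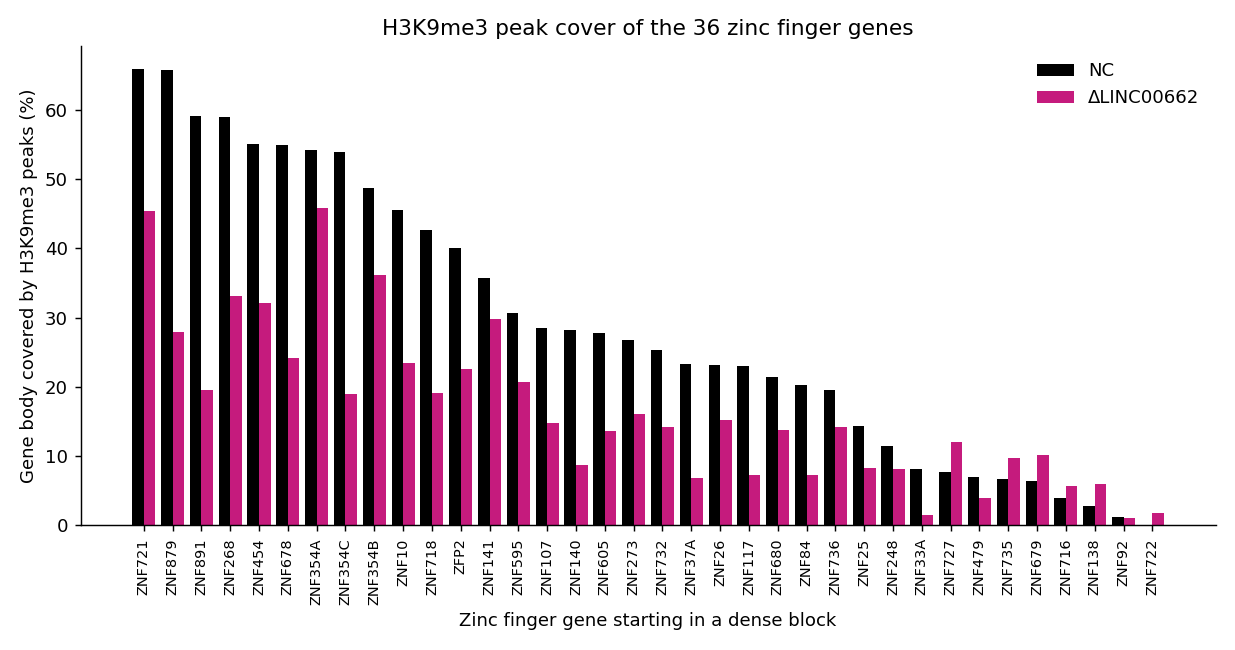
Percentage of the gene body covered by H3K9me3 peaks for the 36 zinc finger genes that start in a block, in NC (black bars) and ΔLINC00662 (pink bars), ordered by NC cover. Cover in NC runs from 65.9% in ZNF721 to 0% in ZNF722, and the pink bar is the taller one only among the genes with the least cover.

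The linker matches of the blocks lay in few of the NC peaks. Of 3 equal parts of the gene body, the first from the start site had the highest median NC cover, 35.7%, and the middle part the lowest, 25.4%. The last part was less covered than the first in 25 of the 36 genes and more covered in 10. The 256 zinc finger genes of the other bins went the other way, with the last part more covered in 75 and less covered in 49. Mean NC cover there was 6.28% in the first part and 11.9% in the last. TGEKP was searched as a translated motif on both strands in every reading frame, and 0 of its 2633 matches overlapped a match of the other motifs named below. The blocks held 331 of the 2633 matches in all bins (12.6%), and 0.164% of their 300-base windows had one against 0.0210% of windows elsewhere. In NC 108 of the 331 matches (32.6%) lay inside an H3K9me3 peak, and 21 peaks held them all. In ΔLINC00662 7 of the 331 (2.11%) lay inside one. In the other bins the numbers were 416 of 2302 (18.1%) and 152 (6.60%). H3K9me3 peaks covered 9.80% of block bases in NC and 7.48% in ΔLINC00662, and 1.60 and 0.926% of the bases of the other bins. In chr4:1-1000000 31 of 51 matches were under NC peaks and 4 under ΔLINC00662 peaks, in chr5:178000001-179000000 29 of 49 and 0, and in chr1:227000001-228000000 12 of 12 and 0. None of the 49 matches in chr7:64000001-65000000 or of the 37 in chr7:63000001-64000000 was under a peak in either list.

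Base composition differed together with the lists. The 21 NC peaks with a linker match had a median GC content of 39.9% and a median width of 1025 bp. Of these, 9 (42.9%, 24.5 to 63.5) overlapped a ΔLINC00662 peak somewhere, against 51.2% of the other NC peaks in the blocks. In the other bins the order was the opposite, at 52 of 97 (53.6%, 43.7 to 63.2) with a match and 35.8% without. Median widths there were 1559 and 470 bp, and block peaks without a match had 508 bp. The part of peak width in these shares was not tested. The share overlapped was higher for NC peaks of higher GC content. It went from 39.6% (36.8 to 42.5) of those with up to 44.1% GC, to 59.4% (56.6 to 62.2) of those with 52.4% or more. Outside the blocks these shares by GC content were 21.3 and 48.6%. Median peak GC was 48.3% in NC and 50.3% in ΔLINC00662 in the blocks, and 47.3 and 50.4% elsewhere. The part of GC content in the difference at the linkers was not tested.

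**Figure D4:**
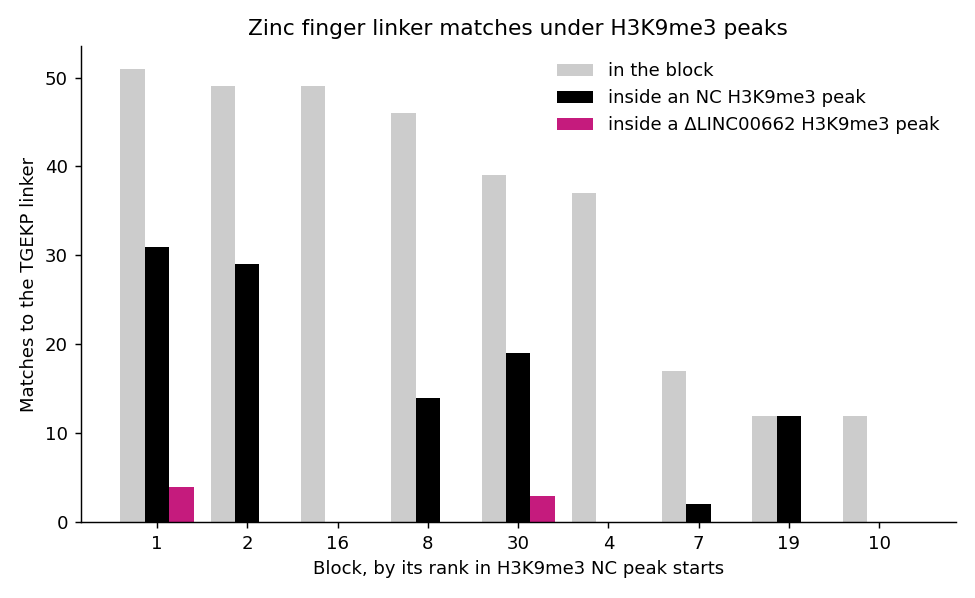
Matches to the TGEKP linker in the 9 blocks with 12 or more, named by their rank in NC H3K9me3 starts. Grey bars count all matches, black bars those inside an NC H3K9me3 peak and pink bars those inside a ΔLINC00662 peak. Black bars reach 31 in the first block and 29 in the second, and pink bars are visible in the blocks ranked 1 and 30, at 4 and 3.

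The protocadherin block, chr5:140000001-141000000, had 210 NC starts and 186 in ΔLINC00662, and held every clustered protocadherin gene of the bins. A peak lay within 1 kb of the start site of 48 of the 53 genes in NC (90.6%) and of 47 in ΔLINC00662 (88.7%), against 102 and 92 of the 184 coding genes and segments of the blocks, these included. The PCDHA and PCDHG transcripts share their last exons and are nested, so their gene-body counts are not independent. The 16 PCDHB genes are short and separate. Their cover in NC ranged from 24.5% in PCDHB1 to 79.0% in PCDHB6, and in ΔLINC00662 PCDHB6 was 34.8% covered. H3K27me3 NC peaks lay at 6 of the 53 start sites (11.3%), PCDHB1 among them, against 6.75% of coding start sites in the other bins, and this block had 41 H3K27me3 starts in NC, 14 with ΔLINC00641 and 20 with ΔSETD5-AS1.

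The H3K27me3-rich blocks carried both marks. A number of 100 or more NC H3K27me3 starts was reached by 13 blocks and by 8.48% of all bins. Of the 13, 10 lay within 5 Mb of a chromosome end and none near a centromere gap. Together they held 1707 H3K9me3 and 3599 H3K27me3 NC starts but only 15 coding gene starts, and H3K27me3 peaks covered 31.8% of their bases. The block with the most starts was chr7:153000001-154000000, with 420 H3K27me3 starts in NC, 380 with ΔLINC00641 and 414 with ΔSETD5-AS1. The order depended on the measure. NC peaks merged within 1 kb numbered 131 in this block and 173 in chr5:3000001-4000000. Cover in NC was 51.3% in this block and 55.2% in chr1:4000001-5000000. The block chr7:153000001-154000000 holds the start of DPP6, a very long gene for an auxiliary subunit of neuronal potassium channels. This gene spans 1240778 bp and over its whole length carried 203 H3K9me3 and 463 H3K27me3 NC peaks. By starts the block was followed by chr10:132000001-133000000 (378, 343 and 389), which overlaps TCERG1L, and by chr5:2000001-3000000 (348, 329 and 352).

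The last of these contains IRX2, a homeobox gene, and the adjacent chr5:3000001-4000000 contains IRX1 with 342, 294 and 333 starts. Neither gene body had an H3K27me3 NC peak, and each had 2 H3K9me3 NC peaks. In ΔLINC00641 IRX1 had 1 H3K27me3 peak. In the 13 blocks 57.2% of H3K9me3 peaks overlapped an H3K27me3 peak, and 24.6% of H3K27me3 peaks overlapped an H3K9me3 peak. In the 21 other blocks these shares were 5.63 and 44.4%, and in the other bins 8.97 and 8.62%. Of the 396 H3K27me3 peaks of the 21 blocks, 86 were in chr7:61000001-62000000, and 69 of these overlapped an H3K9me3 peak. No H3K9me3 peak of the chromosome 13 blocks overlapped an H3K27me3 peak, so the shares of the 21 blocks are uneven. The shares of the 13 blocks follow in part from their choice by H3K27me3 starts. By bases, H3K27me3 peaks covered 43.3% of the H3K9me3 peak bases of the 13 blocks against 31.8% of all their bases. The share of peak bases was the higher in 13 of 13 blocks. In the 21 other blocks the shares were 3.94 and 1.05%, with that of peak bases the higher in 11. In the other bins they were 5.94 and 1.90%, so a higher share of peak bases was not particular to the 13 blocks. In chr15:92000001-93000000 the shares were 56.3 and 27.7%, and in chr10:132000001-133000000 they were nearly equal at 53.1 and 52.0%.

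The 21 other blocks held 396 NC H3K27me3 starts in all. Of all 34 blocks, 13 had 10 or fewer, among them the densest, chr4:1-1000000, with 10. The 8 blocks near centromere gaps had 5 to 86 H3K27me3 starts in NC. The most were in chr7:61000001-62000000, with 86 in NC, 29 with ΔLINC00641 and 63 with ΔSETD5-AS1, and the fewest in chr7:63000001-64000000, with 5, 0 and 1. In the former 46.9% of the NC H3K9me3 peaks overlapped an H3K27me3 peak, in a bin where 25.4% of the bases are unknown. At 30.5% of its NC H3K9me3 summits, 10% or more of the 12-base words of a 300-base window occurred more than once in it. CENP-B boxes, searched on both strands, were mostly in chr7:61000001-62000000, which held 108 of the 122 in the blocks. Of the 108, 35 lay under NC H3K9me3 peaks and 15 under NC H3K27me3 peaks. The other 33 blocks held 14. A window with a box made up 0.106% of the block windows, 0.0119% without chr7:61000001-62000000, and 0.0171% of the windows of the other bins. For the satellite word ATTCCATTC, searched on both strands, the shares were 0.880% in the blocks, 0.429% without the 8 near centromere gaps, and 0.455% in the other bins. The median block had 15.5 matches to it and the median other bin 15. For the telomere word TTAGGGTTA, searched likewise, the share was 0.173% in the blocks and in the other bins.

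The chromosome 13 blocks were the poorest in genes and GC. Their GC content ranged from 33.7 to 36.2%, and the 8 blocks held 5 coding gene starts. Among these genes is PCDH9, a protocadherin outside the clusters, with 927612 bp, of which NC peaks covered 7.78% and ΔLINC00662 peaks 4.93%. The block chr13:93000001-94000000 overlaps GPC5 and GPC6, neighbouring genes for cell-surface glypicans, which over their whole lengths had 113 and 79 NC peaks and 64 and 44 ΔLINC00662 peaks. The fullest 100 kb of each block held 14 to 23 starts (median 19), whereas the zinc finger blocks had 26 to 44 in their fullest 100 kb. The H3K27me3-rich blocks were close to those of chromosome 13, with 15 to 34 (median 21). H3K27me3 peaks were few, with 16 starts in NC, 14 with ΔLINC00641 and 29 with ΔSETD5-AS1 over 8 Mb. Their NC peaks had a median GC content of 41.4 to 43.7% by block, and 2.63 to 32.7% of them lay where the local input was over 5 times the genome-wide level. That share was at most 1.95% in the zinc finger blocks.

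The next comparison asks what happened to H3K9me3 in the blocks when LINC00662 was depleted. They held 4190 ΔLINC00662 starts, 0.907 times the NC number, and the other bins 0.699 times. By block the ratio ranged from 0.579 in chr13:93000001-94000000 (114 and 66 starts) to 1.20 in chr5:3000001-4000000 (135 and 162), with a median of 0.884. The other 783 bins with 30 or more NC starts had a median of 0.672. The ratio was higher in the blocks than in the other bins of the same chromosome on 9 of 10 chromosomes, the exception being chromosome 15 with 1 block. Fewer starts were counted in ΔLINC00662 in 21 blocks and more in 13, where 86.4% of all bins had fewer. More starts did not always mean more cover, as block peaks had a median width of 510 bp in NC and 449 bp in ΔLINC00662. Among the 13, cover went from 8.15% in NC to 5.31% in chr13:62000001-63000000 and from 9.26 to 8.42% in chr10:132000001-133000000. In others of the 13 it was higher, as in chr5:3000001-4000000, from 7.43 to 8.14%. As NC counts selected the blocks, a lower count in the other list can follow from that selection. When 34 bins were ranked by ΔLINC00662 starts in their place, 27 were the same (79.4%).

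By kind the ratio of starts was 0.781 on chromosome 13, 0.886 in the zinc finger blocks, 0.963 in the H3K27me3-rich blocks and 0.974 in the 5 others. Cover was lower in ΔLINC00662 in each kind, and the ratios of starts do not show by how much. It went from 8.33% in NC to 4.81% on chromosome 13 and from 13.8 to 9.98% in the zinc finger blocks. In the H3K27me3-rich blocks it went from 7.998 to 7.09%, and in the 5 others from 10.5 to 8.89%. Of the H3K27me3-rich blocks 6 of 13 had fewer starts in ΔLINC00662, and of the chromosome 13 blocks 7 of 8. Spearman's rho between GC content and the ratio was 0.38 over the 34 blocks and 0.17 over the 783 bins, given as a description of bins that share the same lists. A number of 100 or more ΔLINC00662 starts was reached by 28 bins in all (1.05%), 22 of them blocks. These 22 were 64.7% of the blocks and 78.6% of the 28.

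**Figure D5:**
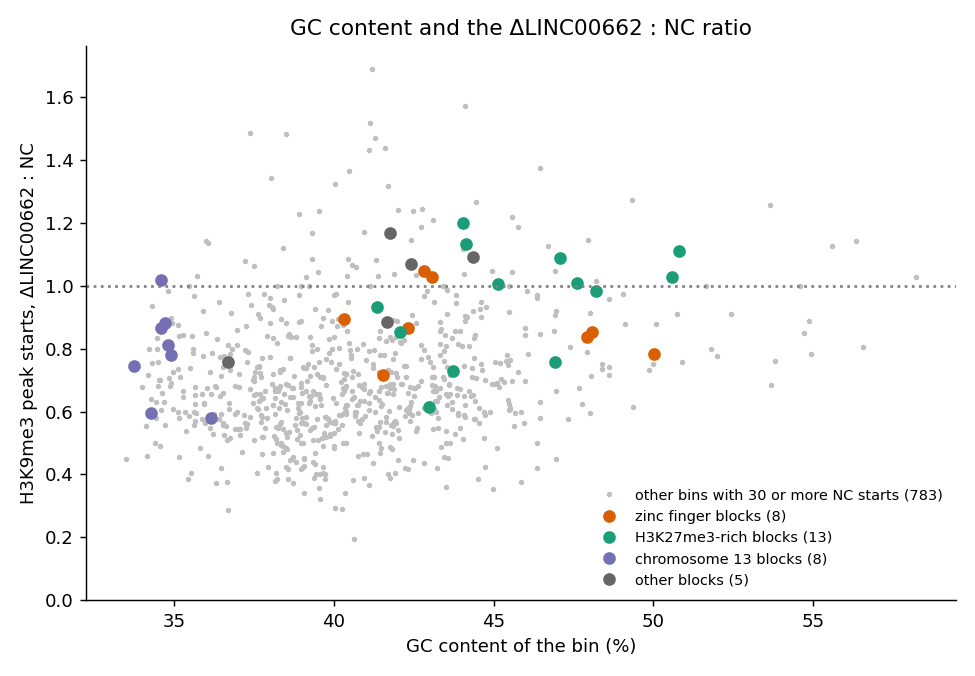
GC content of each bin against the ratio of ΔLINC00662 to NC H3K9me3 peak starts. Coloured points are the 34 blocks by kind, grey points the 783 other bins with 30 or more NC starts, and the dotted line marks equal numbers. The chromosome 13 blocks sit at the left with ratios of 0.579 to 1.02.

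Counts of starts do not say whether peaks lay at the same place. Of the 4622 NC peaks in the blocks 2365 overlapped a ΔLINC00662 peak by 1 bp or more (51.2%, 49.7 to 52.6), and 35.8% did in the other bins (35.4 to 36.2). In the other direction, 59.7% of the ΔLINC00662 peaks in the blocks and 53.7% elsewhere overlapped an NC peak. Dense lists overlap more readily, and ΔLINC00662 peaks covered 7.48% of block bases and 0.926% of the others. The share was 43.6% in the H3K27me3-rich blocks (41.2 to 45.9), 44.8% on chromosome 13 (41.6 to 48.1), 59.0% in the zinc finger blocks (56.4 to 61.7) and 63.3% in the others (59.6 to 66.8). It was highest in the protocadherin block, at 72.9%, and lowest in chr22:48000001-49000000, at 26.4%, although the latter had 121 NC and 122 ΔLINC00662 starts. Among the H3K27me3-rich blocks it reached 67.9% in chr7:157000001-158000000, and their ratios of starts ran from 0.614 in chr15:92000001-93000000 to 1.20. The genome-wide level, the number of fragments at a base under even cover, was 4.29 in NC and 3.50 in ΔLINC00662, and the part of this depth difference was not tested.

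H3K27me3 was compared in the same blocks after the other depletions, which share the NC list. Over the 34 blocks H3K27me3 starts numbered 3995 in NC, against 3566 after LINC00641 and 3954 after SETD5-AS1 depletion. Their ratios to NC were 0.893 and 0.990, against 0.790 and 0.931 in the other bins. Fewer starts than in NC were counted in 25 blocks in ΔLINC00641 and in 17 in ΔSETD5-AS1, where 45.4 and 32.4% of all bins had fewer. A bin without an NC start cannot have fewer, so these shares are over all bins, empty ones included. The H3K27me3-rich blocks carried most of these starts and had ratios of 0.941 for ΔLINC00641 and, with 3652 starts, slightly above 1 for ΔSETD5-AS1. In the zinc finger blocks 99 starts in NC stood against 46 in ΔLINC00641 and 73 in ΔSETD5-AS1, and in the 5 other blocks 281 against 120 and 200. Each of these 5 had fewer starts in both depletions than in NC. The genome-wide level of these lists was 3.85 fragments for NC, 3.78 for ΔLINC00641 and 4.43 for ΔSETD5-AS1.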

How the data were processed

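Per the labels and methods, the authors trimmed paired-end reads with Cutadapt 3.3, checked them with FastQC 0.11.8, aligned them to hg19 with Bowtie2 2.4.2 and removed PCR duplicates with GATK MarkDuplicates. BAM files of the 3 replicates were then pooled, and MACS2 2.2.7.1 was run on each pool with pooled input as control. The deposited lists give the fold enrichment at the summit as a ratio to local input, its −log10 p-value, and the q-value on the same −log10 scale, with strong peaks at 5 or more. No filter on mapping quality is given in the sources used here. Columns matching no sample numbered 0.

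Peak starts were binned from column 2 of each list, peaks were compared by overlap of 1 bp or more, and a peak was counted in the bin of its start. Fragments at a summit and the genome-wide level were recovered from the −log10 p-value and fold enrichment, and came out whole within 0.2% for 100% of the peaks of each list. The genome-wide level, the depth behind the peaks, ran from 3.50 to 4.43 fragments. Genes were from GENCODE release 44 lifted to GRCh37. Repeat annotation was not used here, and summit sequences beyond those of the 3 blocks shown are not reported here. Wilson 95% intervals cover counting error only, as PCR copies, neighbouring peaks and adjacent blocks are not independent.

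The blocks, gene lists and motifs were chosen with earlier results of these data known. The rule named the 10 densest blocks, the longest run, the extremes of GC content, ratio and gene number, the 3 with the most H3K27me3 starts or zinc finger genes, every block without a coding gene, and those next to the threshold, with their family genes. Other blocks and genes named (chr1:227000001-228000000, chr15:92000001-93000000, chr22:48000001-49000000, GRM6, PCGF3, IDUA, GPC5, GPC6 and PCDH9) were chosen after their values were seen. The kinds, the ZNF595 stretch, the linker counts under peaks, the groups by peak GC and the repeated and copied words were chosen after the values were seen. Alternatives changed the threshold, bin offset, ranking, overlap and strength filters. Scripts ran in Python 3.11.15 with matplotlib 3.10.9, pysam 0.24.0, pandas 2.3.3, samtools 1.23.1, scipy 1.17.1 and numpy 2.4.6, and were tested on simulated data.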

Additional observations from a re-analysis of the deposited data

How the results depend on the processing

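No paired analysis was possible because each list was called on pooled replicates, so that leaving out a replicate could not be run either. Of 97 alternative values over 10 results, 78 kept their direction and stayed within the spread over chromosomes or the counting interval (within 1.5 times for a count), 16 moved and 3 reversed. That spread is wide, with an SD of 4.27 points for the GC difference, 5.56 for coding genes and 121 for H3K27me3 starts, so staying within it says little. The GC difference, 2.52, ranged from 0.703 (ranked by strong peaks) to 3.31 (without blocks near a gap). The difference in median H3K27me3 starts, 36, ranged from 6 to 70 under the same alternatives. The number of blocks was 77 at 75 or more starts and 9 at 150 or more. At 150 the median coding gene difference from the other bins reversed from −2.5 to 1, and 55.6% of blocks held a zinc finger gene. The share near a gap or end, 61.8%, was 77.8% at 150 or more starts, 41.2% when ranked by strong peaks, 79.4% when ranked by ΔLINC00662 starts and 38.2% within 2 Mb. The share of all bins, 16.4%, is for 5 Mb. That for 2 Mb is not given here, so the 38.2% has no baseline. The H3K9me3 ratio, 0.907, became 1.00 when bins were ranked by ΔLINC00662 starts, which reversed its direction. The share of NC peaks overlapped, 51.2%, was 48.8% at 75 and 57.8% at 150 or more starts, and 54.8% ranked by strong peaks, 54.7% by bases and 54.8% by ΔLINC00662 starts. It was 49.2% without blocks near a gap, 35.0% with 50% of the peak overlapped, 68.5% for strong NC peaks and 49.1% without input-rich peaks. The ΔSETD5-AS1 ratio, 0.990, reversed to 1.01 without blocks near a gap. The cause of these differences was not tested.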

Other observations

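Chromosomes 19 and X lie outside the 21 chromosomes of the rule and held dense bins of contrasting kinds. On chromosome 19, 17 of 58 bins (29.3%) had 100 or more NC H3K9me3 starts, up to 393, and all 17 contained zinc finger genes, 226 in sum. They held 3606 starts in NC and 3178 in ΔLINC00662, a ratio of 0.881, and a median of 7 H3K27me3 NC starts. On chromosome X, 9 of 154 bins (5.84%) passed, up to 210 starts, with no zinc finger gene start. They held 1158 starts in NC and 676 in ΔLINC00662, a ratio of 0.584, and 239 to 420 H3K27me3 NC starts each. Over all of chromosome 19, 616 of 1849 linker matches (33.3%) lay under NC H3K9me3 peaks and 160 (8.65%) under ΔLINC00662 peaks.

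Telomere words TTAGGGTTA in the 34 blocks numbered 319, of which 67 lay under NC H3K9me3 peaks, 5 (1.57%) under ΔLINC00662 peaks and 24 (7.52%) under NC H3K27me3 peaks. The block chr12:133000001-133851895 held 73 of the 319, with 50 of the 67 under NC H3K9me3 peaks and 0 under the others. In the other bins the shares of 17077 matches were 3.64, 2.70 and 1.74%.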
